A study of Homo sapiens with 2 samples.

Results

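The genes described here make, take up and sense cholesterol, and were measured in Huh7, an established human hepatocellular carcinoma line. They comprise the enzymes that turn acetyl-CoA into cholesterol, the regulators of the sterol-responsive transcription factor SREBP-2, lipoprotein receptors, and proteins that move or esterify cholesterol inside the cell. Members were chosen by name: 34 genes, given under 36 names because 2 have older symbols, matched to the symbols of the array's probes. Of these, 31 had a value on both arrays, out of 11579 named genes measured. SOAT2 and STARD4 had probes but no value on either array, and FDFT1 was not analysed here.

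One group was Huh7 infected with the lentiviral vector (vector, 1 array). The other received a lentiviral short hairpin RNA directed at CD133 (shCD133, 1 array), the surface glycoprotein encoded by PROM1. Both cultures were grown in serum-containing DMEM, and serum is itself a source of lipoprotein cholesterol. The labels do not say whether the vector carries a non-targeting hairpin, nor how long after infection RNA was taken, and 1 hairpin in 1 culture stands for the knock-down. The study asks how CD133 and STAT3 act in this cancer, and the arrays compare transcript levels with and without the hairpin.

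Cells obtain cholesterol in 2 ways, by synthesis through mevalonate, squalene and lanosterol, and by uptake of lipoproteins. When sterols in the endoplasmic reticulum fall, SCAP escorts SREBP-2 to the Golgi, where the site-1 and site-2 proteases release its transcription factor domain, which induces most enzymes of the pathway. INSIG proteins hold SCAP back when sterols are plentiful. The liver is the main organ of cholesterol synthesis and lipoprotein traffic.

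Promoter sequences are shown for 8 members because they sit at the ends of the range of differences or carry the motifs counted below. Each covers 250 bases before to 50 bases after the RefSeq gene start in GRCh38.p14, written 5′ to 3′ on the gene's strand. Capitals mark matches, on either strand, to 3 motifs: a sterol regulatory element (TCACNCCAC), the CCAAT box (CCAAT) and the GC box (GGGCGG); neighbouring matches can overlap. The sequences of 4 members with higher values on the shCD133 array (INSIG1, chr7:155297628-155297927, plus strand; MVK, chr12:109573544-109573843, plus strand; FDPS, chr1:155308616-155308915, plus strand; NSDHL, chrX:152830813-152831112, plus strand) are as follows.
INSIG1: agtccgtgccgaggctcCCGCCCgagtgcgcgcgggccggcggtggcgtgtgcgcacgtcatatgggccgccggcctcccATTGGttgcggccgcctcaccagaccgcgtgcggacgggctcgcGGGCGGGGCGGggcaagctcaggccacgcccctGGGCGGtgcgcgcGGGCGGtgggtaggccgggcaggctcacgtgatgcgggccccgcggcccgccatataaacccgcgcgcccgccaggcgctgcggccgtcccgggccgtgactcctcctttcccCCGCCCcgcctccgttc
MVK: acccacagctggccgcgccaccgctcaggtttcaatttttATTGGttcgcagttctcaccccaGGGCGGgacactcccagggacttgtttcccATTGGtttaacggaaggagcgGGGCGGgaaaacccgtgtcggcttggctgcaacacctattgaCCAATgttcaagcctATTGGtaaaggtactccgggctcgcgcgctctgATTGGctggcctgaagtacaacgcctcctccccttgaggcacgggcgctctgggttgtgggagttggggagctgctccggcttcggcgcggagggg
FDPS: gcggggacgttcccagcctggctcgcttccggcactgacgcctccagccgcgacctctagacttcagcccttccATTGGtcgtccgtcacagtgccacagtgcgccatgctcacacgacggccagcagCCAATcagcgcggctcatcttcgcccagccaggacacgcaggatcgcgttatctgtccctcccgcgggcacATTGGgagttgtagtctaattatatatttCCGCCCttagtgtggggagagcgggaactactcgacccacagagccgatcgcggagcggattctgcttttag
NSDHL: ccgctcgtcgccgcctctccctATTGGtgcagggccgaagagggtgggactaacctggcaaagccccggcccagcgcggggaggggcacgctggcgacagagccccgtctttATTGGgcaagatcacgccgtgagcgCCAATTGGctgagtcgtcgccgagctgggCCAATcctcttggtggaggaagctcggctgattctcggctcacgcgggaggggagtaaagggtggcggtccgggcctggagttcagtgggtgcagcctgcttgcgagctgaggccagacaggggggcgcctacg
The next are TM7SF2 and LBR, which encode enzymes for the same reduction and differed in opposite directions (TM7SF2, chr11:65111622-65111921, plus strand; LBR, chr1:225428772-225429071, minus strand).
TM7SF2: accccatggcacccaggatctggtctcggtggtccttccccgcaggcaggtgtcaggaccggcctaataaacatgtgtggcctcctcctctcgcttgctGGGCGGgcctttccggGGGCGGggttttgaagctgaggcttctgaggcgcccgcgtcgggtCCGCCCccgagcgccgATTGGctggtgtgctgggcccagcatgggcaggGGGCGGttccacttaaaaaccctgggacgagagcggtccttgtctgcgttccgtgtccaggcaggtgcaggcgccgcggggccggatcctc
LBR: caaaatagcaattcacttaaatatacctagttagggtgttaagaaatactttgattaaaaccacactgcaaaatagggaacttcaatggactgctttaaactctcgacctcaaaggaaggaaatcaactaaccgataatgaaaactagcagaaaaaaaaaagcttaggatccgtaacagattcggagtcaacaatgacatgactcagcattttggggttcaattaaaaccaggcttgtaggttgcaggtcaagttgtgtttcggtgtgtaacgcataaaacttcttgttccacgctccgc
The last are MBTPS2, the member with the lowest difference, and SREBF2, the gene of SREBP-2 (MBTPS2, chrX:21839367-21839666, plus strand; SREBF2, chr22:41832855-41833154, plus strand).
MBTPS2: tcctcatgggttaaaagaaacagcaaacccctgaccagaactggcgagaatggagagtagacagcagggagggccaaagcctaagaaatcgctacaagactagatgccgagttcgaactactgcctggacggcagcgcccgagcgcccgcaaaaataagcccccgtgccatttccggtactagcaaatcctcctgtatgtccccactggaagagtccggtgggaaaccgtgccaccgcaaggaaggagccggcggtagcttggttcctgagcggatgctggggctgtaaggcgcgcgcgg
SREBF2: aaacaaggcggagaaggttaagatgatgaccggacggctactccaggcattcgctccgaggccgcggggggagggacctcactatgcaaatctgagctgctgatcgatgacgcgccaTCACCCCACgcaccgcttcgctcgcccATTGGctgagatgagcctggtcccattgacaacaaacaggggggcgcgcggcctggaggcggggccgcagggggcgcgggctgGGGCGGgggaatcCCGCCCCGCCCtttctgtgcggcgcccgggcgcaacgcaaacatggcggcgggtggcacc

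RefSeq promoters were matched for 28 of the 31 members (not ACAT2, SQLE and SCARB1). An exact match to the sterol regulatory element was found in 1 of them (3.57%), SREBF2. Its first base lay 133 bases before the gene start and it read TCACCCCAC. Such a match was present in 1.13% of all 35116 promoters of that length and in 1.03% of those of measured genes. The CCAAT box, bound by NF-Y, a usual partner of SREBP, was found in 17 of the 28 members (60.7%), against 34.6% of all promoters and 37.3% of the promoters of 9356 measured genes. The GC box was found in 24 of 28 (85.7%), against 45.0% of all promoters and 68.7% of those of measured genes. The MVK and NSDHL promoters each held 5 CCAAT matches. LBR, MBTPS1 and MBTPS2 held none of the 3 motifs, as did 19.5% of measured genes. The 17 members with a CCAAT box had a median log2 difference of 0.33 and the 11 without it 0.32. Their ranges differed: the lowest with the box was -0.42, and MBTPS2 and LBR (-1.76 and -1.29) were among those without it. The 24 members with a GC box had a median of 0.35 and the 4 without it one of -0.60. Those 4 were NSDHL (0.70), MBTPS1 (0.09), LBR (-1.29) and MBTPS2 (-1.76). No test was made of these splits. A match to these letters is a description of the sequence and not evidence of binding. Only exact matches in this stretch were counted, so a missing match does not show that an element is absent.

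Values below are the authors' log2 intensities of each gene's brightest probe, and differences are shCD133 minus vector on the same scale. Neither group was replicated, so there is no test and no p-value, and every difference describes these 2 arrays only. Probes of the same gene give the one available measure of error, an SD of 0.33 per probe over 2907 genes with more than 1 probe. This between-probe SD was 0.40 at log2 levels under 8 and 0.13 at 12 and above, and it leaves out variation between cultures. In bulk RNA, fewer cells expressing a gene and less RNA per cell cannot be told apart.

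PROM1 went from 13.58 with the vector to 10.83 with shCD133 on its 1 probe, 6.72-fold lower. The 12 hepatocyte and liver tumour markers with probes in the annotation used here all had a value on both arrays, with ALB at 15.48 and 15.47. They did not all stay level: APOA2 differed by -1.81, FGB by -1.32, FGA by -0.66, RBP4 by -0.61 and APOH by 0.61, the first 2 by more than most cholesterol genes. Unlogged and summed, they came to 198588 with the vector and 172511 with the hairpin. Of 12 markers of cells that the culture should not hold 7 had a value, with log2 levels of 7.22 to 13.46 with the vector and 7.25 to 13.45 with shCD133, and PTPRC, CD3E, VWF, CDH5 and COL3A1 had none. Their summed intensity was 13119 and 13746, most of it from LUM (13.46 and 13.45). Among them CD14, which went from 8.32 to 9.92 (1.60), and COL1A1, from 7.77 to 8.52 (0.74), were higher with shCD133. The part of either marker list in the results was not tested.

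The cholesterol genes lay mostly on the higher side with shCD133, by less than 2-fold. Their median difference was 0.33, against 0.11 for all named genes, and 23 of 31 (74.2%) were above 0, against a background of 59.2%. The other 8 were below 0, where 40.7% of all genes were. INSIG1 was the 1 member at least 2-fold higher, where 2.08% of all genes were. The 2 members at least 2-fold lower were MBTPS2 and LBR, a share of 6.45% against 8.26% of all genes. At 1.5-fold, 9 of 31 were higher (29.0%, background 12.3%) and 2 were lower (6.45%, background 16.3%). The 9 were INSIG1, MVK, FDPS, TM7SF2, MVD, IDI1, LSS, NSDHL and INSIG2. Of these 9, 7 encode enzymes of the pathway, as do 18 of the 31 members measured. Because the members share 2 arrays and were not chosen blind to these data, the shares are descriptions.

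**Figure D1:**
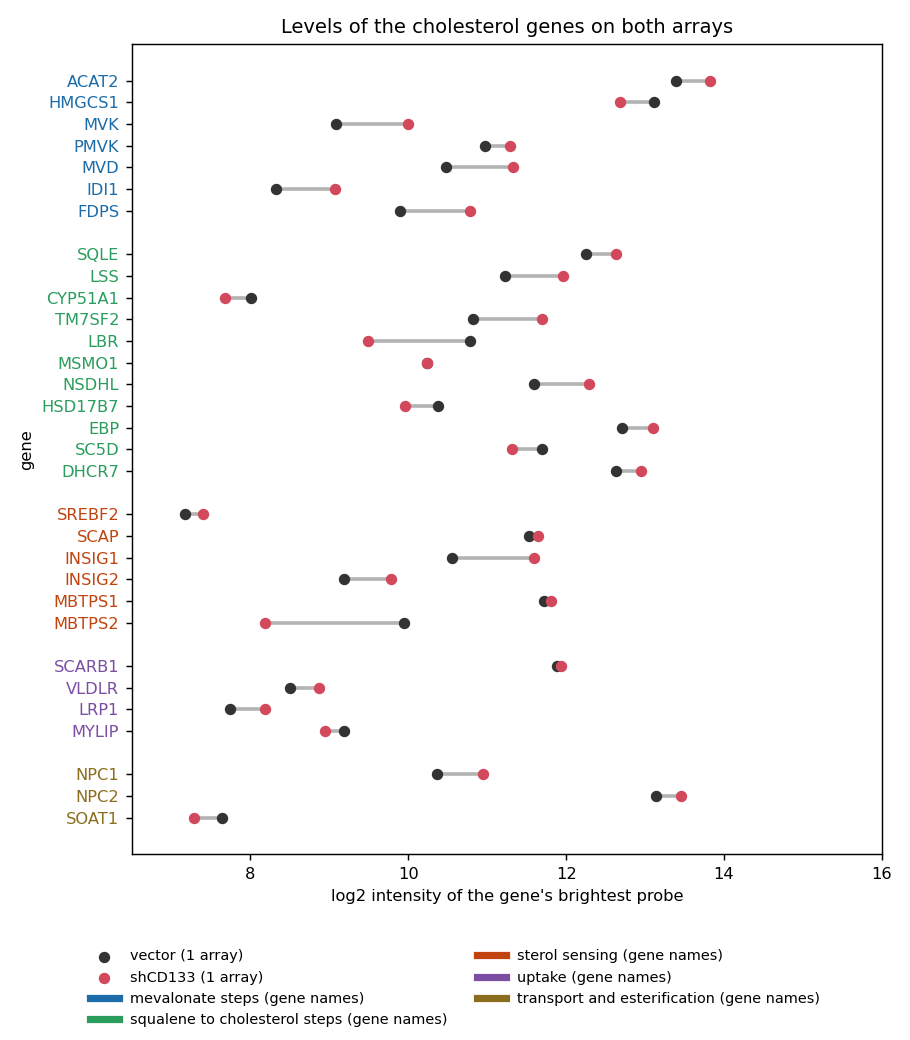
Log2 intensity of the brightest probe (x axis) of each cholesterol gene (y axis, names coloured by role) on the vector array (dark points) and the shCD133 array (red points), 1 array each, joined by grey lines. The longest lines belong to MBTPS2 (9.95 to 8.19) and LBR (10.78 to 9.49), both lower with shCD133, and most other red points lie to the right of the dark ones.

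The 7 enzymes of the mevalonate steps had the highest median of the 5 role groups, 0.75, with 6 above 0 (85.7%, background 59.2%) and 4 at least 1.5-fold higher (57.1%, background 12.3%). Their median was 0.63 with centring, 0.60 with the level trend removed, 0.56 with the length trend removed and 0.90 with background subtraction. ACAT2, the cytosolic thiolase that joins 2 acetyl-CoA units, went from 13.39 to 13.82, a difference of 0.43. HMGCS1, which makes HMG-CoA in the next step, went the other way, from 13.11 to 12.69 (-0.42). It was the only mevalonate enzyme below 0, under the main processing and under the 6 other settings tried. HMGCS1 lay below 79.2% of all genes.

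MVK, mevalonate kinase, went from 9.09 to 10.00, a difference of 0.91 or 1.88-fold, the highest among the enzymes under the main processing. PMVK, the kinase of the following step, went from 10.97 to 11.29 (0.32). MVD, the decarboxylase that yields isopentenyl diphosphate, went from 10.47 to 11.33 (0.86). These 3 enzymes act in succession, and the differences of MVK and MVD were each larger than that of PMVK between them by more than the between-probe SD at their levels (0.27 and 0.25).

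IDI1, which isomerizes isopentenyl diphosphate, went from 8.33 to 9.08 (0.75). FDPS, which condenses these units to farnesyl diphosphate, went from 9.90 to 10.79 (0.89, or 1.85-fold). Of all named genes, 3.29% had a higher difference than FDPS and 2.96% a higher one than MVK. The RefSeq table lists 10 pseudogenes of FDPS and 3 of IDI1, and signal from such copies was not told apart from that of the genes.

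From squalene onwards the enzymes divided. Of 11 measured, 7 were above 0 and 4 below, a share above 0 of 63.6% that is near the background of 59.2%. Their median was 0.32, and it was 0.21 with centring and 0.13 with the length trend removed. SQLE, squalene epoxidase, the first oxygen-requiring step, went from 12.25 to 12.63 (0.38; the dimmer probe 0.45). LSS, which cyclizes the product to lanosterol, went from 11.22 to 11.96 (0.74). Its dimmer probes differed by 0.41 and 0.14, and the mean over its 3 probes was 0.43.

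CYP51A1, the demethylase that acts on lanosterol, was at 8.01 with the vector and 7.68 with shCD133 (-0.32). Its difference was smaller in size than the between-probe SD of 0.40 at that level, but larger with centring on the median gene (-0.44). Its mean level was under 8, where differences are compressed, and 3 pseudogenes are listed for it. The next reaction, a reduction of the sterol ring, can be carried out by TM7SF2 or by LBR. TM7SF2 went from 10.82 to 11.69, a difference of 0.87 or 1.83-fold higher with shCD133. LBR, which also tethers chromatin to the nuclear lamina, went from 10.78 to 9.49, a difference of -1.29 or 2.44-fold lower. The dimmer LBR probe differed by -0.90, so both LBR probes lay on the lower side and TM7SF2, with 1 probe, on the higher. Only 3.52% of all genes had a higher difference than TM7SF2, and 4.98% had a lower one than LBR.

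MSMO1, the oxidase that starts removal of the next methyl groups, was level, at 10.23 and 10.24 (0.01). Its other probes differed by 0.12 and 0.17, and its sign changed to lower with centring or with either trend removed. NSDHL, the dehydrogenase of the same demethylation, went from 11.59 to 12.29 (0.70). HSD17B7, its ketone reductase, went from 10.38 to 9.96 (-0.42), with 2 pseudogenes listed. The 3 enzymes of this demethylation complex therefore had differences of 3 kinds, near 0, higher and lower.

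The last steps also divided. EBP, the sterol isomerase, went from 12.71 to 13.10 (0.40). SC5D, the desaturase that follows, went from 11.69 to 11.32 (-0.37). DHCR7, a reductase that acts after it, went from 12.63 to 12.95 (0.32; the dimmer probe 0.31). At these levels the between-probe SD was 0.13 for EBP and DHCR7 and 0.17 for SC5D, so each difference exceeded it.

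**Figure D2:**
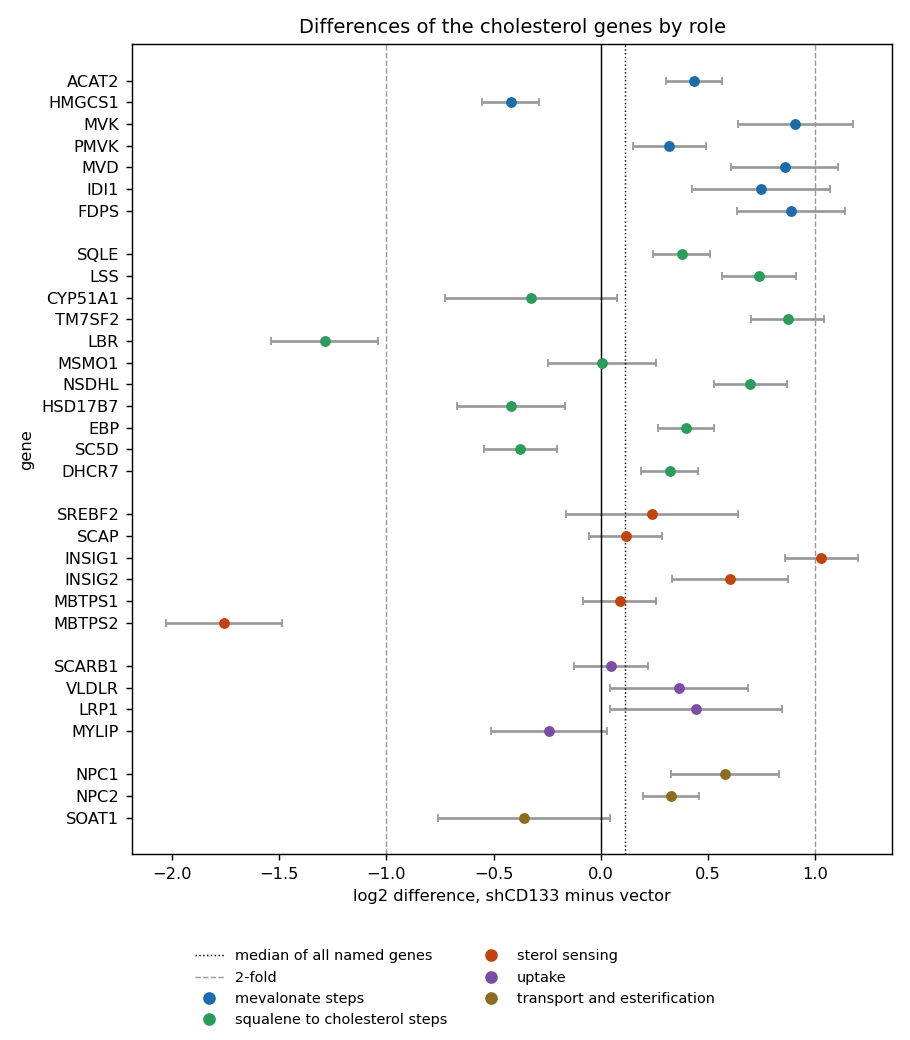
Log2 difference, shCD133 minus vector (x axis), of each cholesterol gene (y axis) in pathway order and coloured by role; grey bars are the between-probe SD at the gene's mean level, not a replicate error. Dashed lines mark 2-fold and the dotted line the median of all named genes (0.11). INSIG1 (1.03) lies past the upper dashed line and LBR (-1.29) and MBTPS2 (-1.76) past the lower one.

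Among the 6 sterol-sensing genes the median was 0.18 (0.06 with centring, 0.32 with background subtraction) and the range the widest, from -1.76 to 1.03. INSIG1, whose gene is itself induced by SREBP when sterols are low, went from 10.56 to 11.59, 2.04-fold higher with shCD133. Its dimmer probe went from 7.86 to 8.58 (0.73). INSIG2 went from 9.18 to 9.79, a difference of 0.60 or 1.52-fold. Both INSIG genes were thus higher, and 1.91% of all genes had a higher difference than INSIG1 against 11.5% for INSIG2. INSIG1 stayed under 2-fold with the mean over probes (0.88), with centring (0.92) and with the trend on level (0.90) or length (0.79) removed.

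SCAP, which carries SREBP-2 to the Golgi, was at 11.53 and 11.65 (0.12), close to the median gene. SREBF2 was at 7.17 and 7.41 (0.24), within the between-probe SD of 0.40, and only 2.05% of genes had a lower vector level, so its value is close to the floor of the scale. The proteases that cut SREBP-2 in the Golgi differed from each other. MBTPS1, the site-1 protease, was at 11.72 and 11.81 (0.09; the dimmer probe 0.18). MBTPS2, the site-2 protease, went from 9.95 to 8.19, a difference of -1.76 or 3.38-fold lower. The dimmer MBTPS2 probe, the only 1 of its probes annotated to a RefSeq transcript, went from 8.89 to 7.62 (-1.27), also more than 2-fold lower. Only 1.87% of all named genes had a lower difference than MBTPS2.

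**Figure D3:**
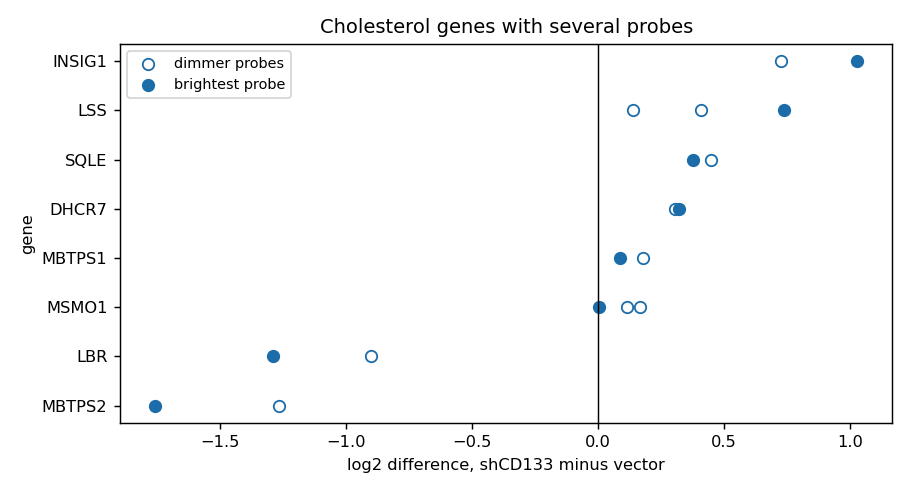
Log2 difference, shCD133 minus vector (x axis), of every probe of the 8 cholesterol genes with more than 1 probe (y axis); filled points are the brightest probe, open points the others. All probes of each gene lie on the same side of 0, and the MBTPS2 probes at -1.76 and -1.27 lie farthest from it.

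The receptors differed less. SCARB1, the receptor for high-density lipoprotein, was at 11.88 and 11.93 (0.05), and its sign changed to lower with centring (-0.07). VLDLR went from 8.51 to 8.87 (0.37) and LRP1, a broad scavenger of remnant particles, from 7.74 to 8.19 (0.44). MYLIP, a ubiquitin ligase that marks lipoprotein receptors for degradation, went from 9.19 to 8.95 (-0.24). None of these 4 was 1.5-fold different, and LRP1 had a mean level under 8, where signal was not told from background.

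For cholesterol leaving the lysosome, NPC1, the membrane transporter, went from 10.37 to 10.95 (0.58). NPC2, the soluble carrier that hands it cholesterol, went from 13.13 to 13.46 (0.33). SOAT1, which esterifies cholesterol for storage, was at 7.64 and 7.28 (-0.36), near the lower end of the scale. Its difference was smaller in size than the between-probe SD of 0.40, but larger with centring on the median gene (-0.47). Both lysosomal genes lay above the median gene by more than the between-probe SD at their levels, 0.25 and 0.13.

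Set against the median gene and the between-probe SD at each level, 10 of the 31 members lay more than 2 SDs above and 5 of the 31 more than 2 SDs below. The same held for 10.5% and 19.9% of all named genes. The 5 were HMGCS1, LBR, HSD17B7, SC5D and MBTPS2, a smaller share than among all named genes. Of these 5, 4 are enzymes of synthesis, as are 18 of the 31 members measured. The 8 members with more than 1 probe each had all probes on the same side of 0, and the other 23 rested on 1 probe. Against the median gene (0.11), the probes of MSMO1 and of MBTPS1 fell on both sides.

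On these arrays longer genes tended to have lower differences, so gene length is given beside the results. Across the 31 members Spearman's rho between genomic length and difference was -0.36, and across 11571 genes with a length it was -0.34; genes on the same arrays are not independent replicates. MBTPS2 spans 45.8 kb and LBR 27.3 kb, against a median of 27.4 kb for all named genes. With the length trend removed their differences were -1.75 and -1.40. The 9 members at least 1.5-fold higher spanned 4.36 to 40.3 kb, with a median of 17.6 kb. Among the 2893 longest genes, of 66.7 kb and more, the median difference was -0.18, and the 4 members there (SREBF2, SCARB1, LRP1 and NPC1) had a median of 0.34. Of these members, SREBF2 and LRP1 had mean levels under 8. Among the 2892 genes of 27.5 to 66.6 kb, the 8 members had a median of 0.10 against 0.03 for all genes there. Among the 2893 genes of 10.7 to 27.4 kb, where most members fall, the 17 members had a median of 0.33 against 0.20 for all genes there. With the length trend removed the median of the members was 0.19 and that of all genes 0.01.

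**Figure D4:**
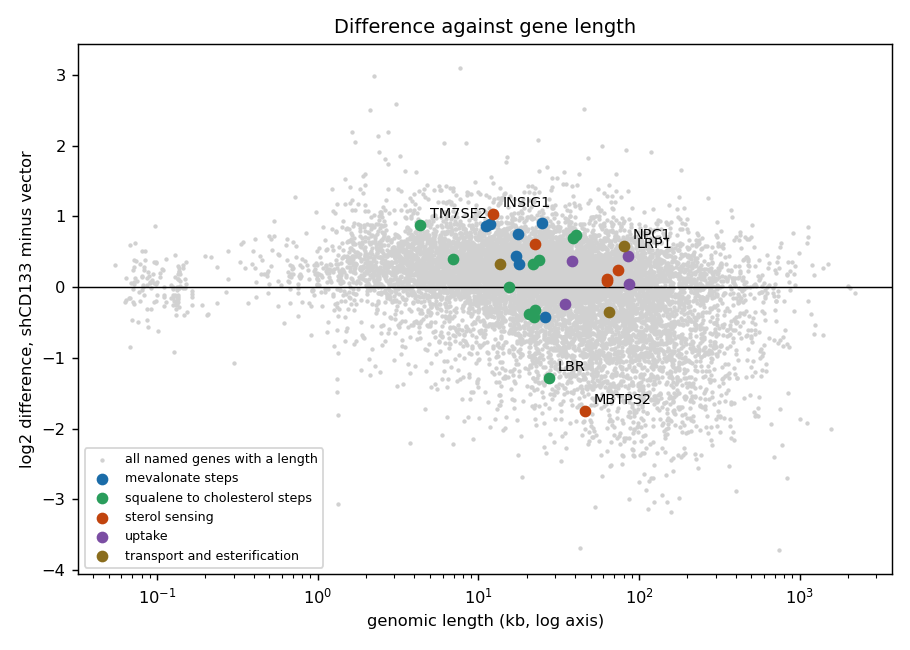
Log2 difference, shCD133 minus vector (y axis), against genomic length in kb on a log axis (x axis) for all named genes with a length (grey) and the cholesterol genes (coloured by role). MBTPS2 (45.8 kb, -1.76) and LBR (27.3 kb, -1.29) lie below the other members, while NPC1 and LRP1, both over 80 kb, lie at 0.58 and 0.44.

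Genes that act around the same pathway were read from 7 further lists. The isoprenoid branch, which uses farnesyl diphosphate for prenylation, dolichol and ubiquinone, had a median of 0.05 over 16 measured genes, below the 0.75 of the mevalonate enzymes that supply it. That median lay below 0 with centring (-0.06) and with the trend on level (-0.11) or length (-0.09) removed. None of the 16 was 2-fold different. FNTB, the farnesyltransferase subunit, went from 8.86 to 9.45 (0.59), and ZMPSTE24, which trims prenylated proteins such as prelamin A, from 12.25 to 11.39 (-0.85).

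Genes of efflux and oxysterol receptors had a median of 0.47 over 8 genes, of which 1 was at least 2-fold lower (12.5%, background 8.26%) and none higher (background 2.08%). That gene was ABCA1, the exporter that loads cholesterol onto apolipoprotein particles, at 11.41 and 8.76 (-2.66) on 1 probe. The oxysterol receptor gene NR1H3 went from 10.47 to 11.07 (0.60). The nuclear receptor NR0B2 went from 7.67 to 8.54 (0.87), from near the lower end of the scale. NR1H3 was named after its value was seen.

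The list of sterol-regulated degradation and SREBP transport held the largest share of genes at least 2-fold lower among these 7. Over 18 genes its median was -0.30, and 4 were at least 2-fold lower (22.2%, background 8.26%) and none 2-fold higher. MARCHF6, a ubiquitin ligase that degrades squalene epoxidase, went from 10.20 to 8.44 (-1.76; the dimmer probe -1.70). SEC24B, a cargo adaptor of vesicles leaving the endoplasmic reticulum, went from 9.08 to 7.56 (-1.53), with 3 probes between -1.57 and -1.34. ERLIN1, a membrane protein that restrains SREBP activation, went from 9.01 to 7.95 (-1.06). FAF2, which helps extract ubiquitinated proteins from the membrane, went from 12.72 to 11.70 (-1.02). The median of this list was -0.25 with the trend on length removed, -0.41 with centring or background subtraction, -0.40 with the level trend removed and -0.46 at a mean level of at least 8. Its median length was 34.6 kb.

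Sterol transfer proteins had a median of -0.26 over 20 genes, with 2 at least 2-fold lower and none higher. The share of lower genes, 10.0%, is near the background of 8.26%, and the median was -0.38 with centring and -0.39 with background subtraction. The 2 genes were OSBPL3, an oxysterol-binding protein relative (10.16 to 8.25, -1.91, its other probe -1.13), and CAV1, the caveolar coat protein (12.18 to 10.85, -1.33, its other probe -0.79). Bile acid and oxysterol enzymes had a median of 0.23 over 11 genes, with 2 at least 2-fold higher (18.2%, background 2.08%) and 1 lower (9.09%, background 8.26%). That median was 0.44 with background subtraction, 0.38 at a mean level of at least 8 and 0.01 with the length trend removed. CYP27A1, the sterol hydroxylase of mitochondria, went from 9.16 to 10.17 on 1 probe (1.01, and 0.90 with centring). AKR1C4 went from 10.89 to 12.09 (1.19, its other probe 0.82). Signal from close relatives of AKR1C4 was not told apart from that of the gene, so its value is uncertain. AKR1D1, a bile acid reductase, went from 13.51 to 12.44 (-1.07), but its other probe differed by -0.27.

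The SREBP-1 lipogenic genes, controlled by the sister factor of SREBP-2, had a median of -0.03 over 15 genes, with none 2-fold different in either direction. That median ranged from -0.15 with centring to 0.07 at a mean level of at least 8. SREBF1 itself went from 9.63 to 10.60 (0.97, its other probe 0.84), and GPAM, the first enzyme of glycerolipid synthesis, from 9.28 to 8.43 (-0.85). At 1.5-fold, 2 of these 15 were higher (13.3%, near the background of 12.3%) and 4 lower (26.7%, background 16.3%), against 9 and 2 of the 31 cholesterol genes; no test of that difference is possible with 1 array per group. Receptor partners had a median of 0.16 over 11 genes (0.05 with centring, 0.02 with the length trend removed), none of them 2-fold different. DAB2, an endocytic adaptor, went from 11.57 to 10.75 (-0.82, its other probe -1.65), and the scavenger receptor OLR1 from 11.38 to 10.61 (-0.77).

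**Figure D5:**
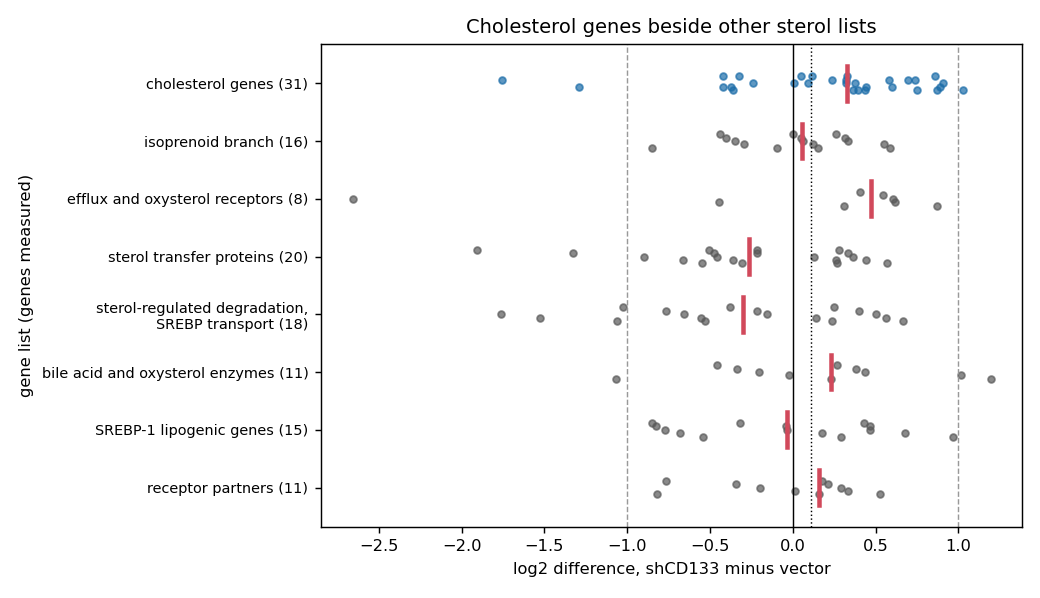
Log2 difference, shCD133 minus vector (x axis), of each measured gene in the cholesterol set and in 7 further sterol lists (y axis, genes measured in brackets); red bars are list medians, dashed lines mark 2-fold and the dotted line the median of all named genes (0.11). The cholesterol genes have a median of 0.33, the degradation and SREBP transport list -0.30 and the sterol transfer list -0.26.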

How the data were processed

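The authors' deposited table holds 1 log2 intensity per probe and array from an Illumina bead array hybridized with biotin-labelled cRNA, per the labels' protocols. The values run from 6.65 to 15.6, so the unstated log base was taken as 2. At every rank the arrays differed by at most 0.00044, as after quantile normalization. Per the submitters' processing notes GenomeStudio 2011.1 was used, with no role stated. Of 47323 probes 19665 had a value on both arrays, and the sources used here do not name the filter behind the rest. A second deposited table has 4 value columns that match no sample label and was not used, so no detection call was available. Arrays have no read depth, and their number limits the precision.

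Probes were named from a 2016 platform annotation, and symbols were updated by gene identifier through RefSeq (GRCh38.p14). A single symbol was found for 15205 probes with a value, several for 2 and none for 4458. A gene took its probe with the highest mean. The quantity was shCD133 minus vector, with no test. Thresholds were 2-fold and 1.5-fold. The between-probe SD was the root mean square of the difference between a gene's 2 brightest probes divided by the square root of 2, in level bins taken from the dimmer probe.

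Alternatives were the mean over probes, centring on the median gene, subtraction of each array's lowest intensity with an offset of 16, removal of a lowess trend (span 0.3) on level or length, a mean level of at least 8, and a 1.5-fold threshold. All measured members were named, with, from each further list, those 2-fold different and the 2 with the largest difference. The members and lists were chosen with earlier results of these data known. Python 3.11.15 with pandas 2.3.3 and statsmodels 0.14.6 was used, and the code was tested on simulated data.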

Additional observations from a re-analysis of the deposited data

How the results depend on the processing

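No paired analysis was possible because each group holds 1 array. No array can be left out either, so all settings are variations on the same 2 arrays, and the cause of a change was not tested beyond what each setting does by construction. MBTPS2 and LBR were at least 2-fold lower under all settings tried; MBTPS2 differed by -2.12 with background subtraction. The count of members at least 2-fold higher, 1 in the main setting, was 0 with the mean over probes, centring, or the trend on level or length removed, 2 with background subtraction and 9 at 1.5-fold. The median of the members, 0.33, was 0.21 with centring, 0.24 with the level trend removed and 0.19 with the length trend removed. LSS moved to 0.43 with the mean over probes. With the length trend removed, ACAT2 (0.24), PMVK (0.13), SQLE (0.24), TM7SF2 (0.59), EBP (0.13), DHCR7 (0.17), INSIG1 (0.79) and NPC2 (0.10) moved by more than the between-probe SD and stayed above 0. MSMO1, MBTPS1 and SCARB1 changed sign with centring or the level trend removed, and MSMO1 with the length trend removed; the other 28 members kept theirs under all settings that kept them. Among all named genes, 241 were at least 2-fold higher, against 578 with background subtraction, 148 with the level trend removed and 1423 at 1.5-fold, and 956 were lower, against 1883 at 1.5-fold. SREBF2, SOAT1, LRP1 and CYP51A1 had mean levels under 8, where differences are compressed.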
